A study of Homo sapiens with 6 samples.

Results

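The genes described here build the centromere, the kinetochore and the spindle checkpoint. They were taken by name from a list of 38 symbols, drawn up with earlier results of these data known, and 37 of them had a row among the 17104 genes of the count table. The expression of MAD1L1, the checkpoint protein that recruits MAD2, was not analysed here. RNA-seq was done on HBMEC, a line the labels describe as endothelium of human brain microvessels, such as is used to model the blood-brain barrier. The 3 OGD/R libraries are from cells deprived of oxygen and glucose and then supplied with both again (reperfusion), a culture model of stroke, and the 3 control libraries are from cells without this treatment. Both groups are one line with no genetic change stated, and the sources used here do not give the duration of either step. The labels do not say whether the libraries are separate cultures, so the p-values cover only the differences among these samples, and those may be technical.

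Total counts ran from 31048662 to 34484647 in the OGD/R libraries and from 32107917 to 33607821 in the control libraries. Members had 162 to 18502 counts in a library. Of 12 endothelial markers, 4 had a value, with a summed level of 203 to 210.4 CPM (counts scaled to library size) after OGD/R and 198 to 215 CPM in control, and PECAM1, VWF, KDR, FLT1, TEK, TIE1, ERG and CLDN5 had no value here. Of 10 epithelial markers, 7 had a value, summing to 2998 to 3059 CPM after OGD/R and 2445 to 2670 CPM in control, most of it from the keratins KRT8, KRT18 and KRT7. Of the 4 endothelial markers, CDH5, VE-cadherin, rose, with 14.9 to 21.3 CPM after OGD/R and 9.47 to 11.4 CPM in control. ROBO4 fell, with 3.07 to 4.70 CPM after OGD/R and 6.14 to 6.76 CPM in control, and EGFL7 and ESAM did not pass (log2 fold changes 0.01 and −0.06). The markers with a value do not establish the labelled endothelial identity, and the cells are called by their label. The 3 keratins rose after OGD/R, while EPCAM (0.14), CDH1 (−0.28), CLDN4 (−0.25) and ESRP1 (−0.18) did not pass. The part of these markers in the results below was not tested.

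The kinetochore is the protein machine that ties a chromosome to the spindle. It is laid on the centromere, where the histone variant CENP-A marks the chromatin. An inner layer of CENP proteins reads this mark and carries an outer layer, the KMN network of the KNL1, MIS12 and NDC80 complexes, which holds the microtubule ends. The spindle checkpoint delays anaphase until every kinetochore is attached, and the chromosomal passenger complex frees faulty attachments. Most of these genes are transcribed mainly in dividing cells, from late S phase into mitosis, under a repressor and activator system that acts at CHR elements and CCAAT boxes close to the start site. Adult brain endothelium divides little, whereas cultured lines cycle.

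Promoter sequences were available from RefSeq (GRCh38.p14) for 31 of the 38 symbols, MAD1L1 included. CENPH, CENPL, CENPM, KNL1, BUB3, TTK and BIRC5 had no entry. A promoter ran from 250 bases before to 50 bases after the annotated start site. It was searched on both strands for the CHR letters TTTGAA or TTTAAA, for CCAAT, and for the E2F-type letters TTTCCCGC, TTTGGCGC, TTTGGCGG or TTTCCCGG. A gene counted where any of its promoters matched, and 4 members had more than 1. A CHR match was found in 16 of the 31 members (51.6%), against 27.9% of 27305 genes. These are all genes with a promoter entry, whether or not they had a count here, so they are not matched to the members. CCAAT was found in 21 members (67.7%), against 39.7% of all genes, and 14 members (45.2%) had 2 or more CCAAT, against 12.9%. An E2F-type match was found in 3 members (9.68%), against 5.21%. The last 120 bases before the start site are shown for 8 members that differ in their response: 6 that were higher after OGD/R, then INCENP and CENPK, which did not pass the test. Capitals mark CHR and CCAAT matches on either strand, so ATTGG is CCAAT and TTCAAA is TTTGAA read from the other strand.
BUB1 (chr2:110678064-110678183, minus strand): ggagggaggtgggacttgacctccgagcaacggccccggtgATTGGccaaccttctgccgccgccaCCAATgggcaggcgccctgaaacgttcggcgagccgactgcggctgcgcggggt
CDCA8 (chr1:37692396-37692515, plus strand): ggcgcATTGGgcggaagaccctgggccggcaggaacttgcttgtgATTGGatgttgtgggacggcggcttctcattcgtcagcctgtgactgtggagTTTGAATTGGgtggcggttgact
CENPA (chr2:26785936-26786055, plus strand): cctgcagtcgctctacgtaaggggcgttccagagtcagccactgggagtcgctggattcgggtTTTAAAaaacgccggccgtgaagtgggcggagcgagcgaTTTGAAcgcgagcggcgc
CENPF (chr1:214603075-214603194, plus strand): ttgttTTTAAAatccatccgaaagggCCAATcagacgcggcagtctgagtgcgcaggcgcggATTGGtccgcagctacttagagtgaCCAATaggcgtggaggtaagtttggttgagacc
ZWINT (chr10:56361260-56361379, minus strand, the first of its listed starts): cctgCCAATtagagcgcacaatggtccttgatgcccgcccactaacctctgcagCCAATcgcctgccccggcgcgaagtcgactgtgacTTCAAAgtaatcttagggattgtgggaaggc
BUB1B (chr15:40160949-40161068, plus strand): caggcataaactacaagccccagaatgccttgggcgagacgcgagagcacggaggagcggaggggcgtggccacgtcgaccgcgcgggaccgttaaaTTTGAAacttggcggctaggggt
INCENP (chr11:62123891-62124010, plus strand): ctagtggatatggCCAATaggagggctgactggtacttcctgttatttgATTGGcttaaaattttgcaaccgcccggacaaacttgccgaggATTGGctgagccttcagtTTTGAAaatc
CENPK (chr5:65563169-65563288, minus strand): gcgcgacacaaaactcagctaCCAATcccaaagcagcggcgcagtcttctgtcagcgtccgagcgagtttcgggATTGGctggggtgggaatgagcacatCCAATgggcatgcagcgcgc
The CDCA8 CHR match shares 1 base with a CCAAT match. Among the members with both a promoter and a measured level, CHR was present in 11 of the 20 that were higher after OGD/R and in 5 of the 10 that did not pass. CCAAT was present in 15 of the 20 higher members and 6 of the 10 that did not pass, and CHR and CCAAT together in 8 of the 20 and 2 of the 10. INCENP holds a CHR and 3 CCAAT matches, and CENPK holds 3 CCAAT matches, although neither passed the test. These are letter matches and not sites of binding.

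The comparison asks which of these genes differ after OGD/R. Kinetochore and checkpoint transcripts were higher after OGD/R. Of the 37 measured members, 26 rose and 0 fell by the quasi-likelihood test of edgeR (adjusted p below 0.05), while 10.2% of all genes tested rose and 9.48% fell. Among the 10641 genes whose mean level was at least that of the lowest member, 15.4% rose. With total-count scaling the split of all genes was 1383 higher and 2098 lower in place of 1749 higher and 1621 lower, and that of the members was 22 higher and 0 lower. The other 11 members did not pass. The median log2 fold change was 0.27 over the members and −0.00457 over all genes tested. The rises were small, from 1.10-fold (BUB1B) to 1.48-fold (CENPW). In 29 members the 3 OGD/R libraries all lay above the 3 control libraries, which held for 16.4% of all genes, and in 0 members did they all lie below, against 16.6%. Summed over the 37 members, the level was 2986, 3036 and 3062 CPM in OGD/R replicates 1, 2 and 3, and 2535, 2539 and 2482 CPM in control replicates 1, 2 and 3. The OGD/R libraries differed less among themselves than from any control library. In RNA from a whole culture, a larger share of cells in the phases that transcribe these genes and more RNA per such cell cannot be told apart.

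**Figure D1:**
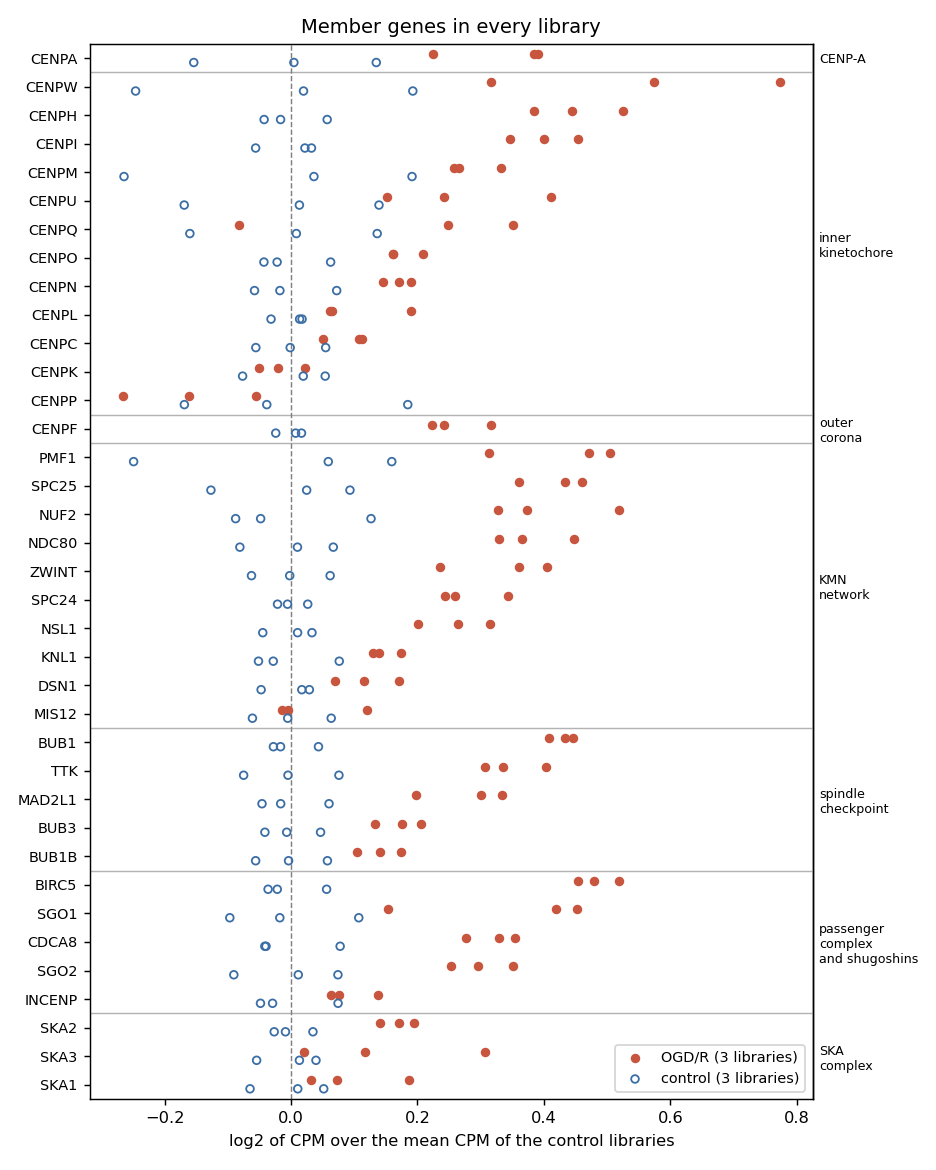
Each row is a member gene, grouped by role, and each point is a library, as log2 of its CPM over the mean CPM of the 3 control libraries (filled, OGD/R; open, control). The groups are apart in 29 of 37 rows, among them all rows of the spindle checkpoint, and overlap for CENPC, CENPK, CENPP, CENPQ, MIS12, INCENP, SKA1 and SKA3.

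At the base of the kinetochore, CENPA, which encodes the centromeric histone H3 variant, rose after OGD/R. Its level was 36.7, 32.7 and 36.5 CPM in OGD/R libraries, against 30.7, 28.1 and 25.2 CPM in control libraries, with no overlap between the groups (log2 fold change 0.34 ± 0.08 SE, adjusted p = 0.000978). CENPC, which links CENP-A nucleosomes to the rest of the inner kinetochore and to MIS12, had 22.1, 21.2 and 22.2 CPM after OGD/R and 20.5, 21.3 and 19.7 CPM in control. These groups overlapped and CENPC did not pass (0.09 ± 0.09, adjusted p = 0.530).

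Within the inner kinetochore, 6 of 12 measured genes rose, 0 fell and 6 did not pass, with a median log2 fold change of 0.18. The counts by complex, here and below, stand beside the 10.2% of all genes tested that rose. The partners CENPH and CENPK, whose proteins sit together in the CENP-HIKM complex, did not move alike. CENPH had 47.4, 50.1 and 45.4 CPM in OGD/R libraries, against 34.4, 36.2 and 33.8 CPM in control libraries (log2 fold change 0.45 ± 0.07, adjusted p = 8.11e-07). CENPK had 48.6, 46.2 and 47.1 CPM in OGD/R libraries, against 48.5, 49.7 and 45.4 CPM in control libraries (−0.02 ± 0.06, adjusted p = 0.907). All OGD/R libraries were high for CENPH, while the CENPK groups overlapped. CENPI, also of CENP-HIKM, had 88.5, 95.3 and 91.8 CPM after OGD/R and 71.2, 70.7 and 66.95 CPM in control (0.40 ± 0.05, adjusted p = 6.19e-08), without overlap. CENPM, the fourth gene of this complex, rose by 0.29 ± 0.09 (adjusted p = 0.0166). It had 26.4, 26.3 and 27.7 CPM after OGD/R and 18.3, 22.5 and 25.1 CPM in control, and without the lowest control library, replicate 1, the value was 0.17 and no longer passed (adjusted p = 0.198).

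CENPW, a small histone-fold protein that pairs with CENP-T, had the largest fold change of the 37 members as tested, but not after the length and GC correction described below, where it was 0.30 and BIRC5, at 0.46, was highest. Its level was 23.8, 28.4 and 32.6 CPM in OGD/R libraries and 16.1, 19.4 and 21.8 CPM in control libraries, so that the lowest OGD/R library lay just above the highest control library (0.57 ± 0.11, adjusted p = 0.000302). Of the CENP-LN pair, which binds the CENP-A nucleosome, CENPN rose to 60.1, 60.9 and 59.1 CPM in OGD/R libraries, against 56.1, 51.3 and 52.8 CPM in control (0.17 ± 0.06, adjusted p = 0.0343). CENPL had 27.6, 30.1 and 27.5 CPM after OGD/R and 26.7, 26.6 and 25.8 CPM in control. The CENPL groups did not overlap, but the gene did not pass (0.11 ± 0.08, adjusted p = 0.385). Without OGD/R replicate 2 the log2 fold change of CENPL was 0.06.

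The CENP-OPQUR complex had 1 of 4 listed genes higher and 0 lower, a count that is no result about the complex. CENPU, which recruits the kinase PLK1, rose by 0.27 ± 0.08 (adjusted p = 0.0121). Its call was lost without OGD/R replicate 3, without control replicate 3 and after the length and GC correction (adjusted p = 0.146, 0.149 and 0.175). CENPO had 24.4, 23.6 and 23.6 CPM after OGD/R and 22.01, 20.5 and 20.8 CPM in control, without overlap, and did not pass (0.18 ± 0.08, adjusted p = 0.140). CENPQ had 13.9, 12.9 and 10.3 CPM after OGD/R and 10.9, 11.9 and 9.73 CPM in control (0.18 ± 0.12, adjusted p = 0.320). Its value rested on single libraries: the log2 fold change of CENPQ was 0.30 without OGD/R replicate 3, 0.09 without OGD/R replicate 1 and 0.11 without control replicate 3, and it was 0.03 after the length and GC correction. CENPP, with the lowest fold change of the members as tested, had 8.95, 7.74 and 8.32 CPM after OGD/R and 9.06, 8.28 and 10.6 CPM in control (−0.16 ± 0.13, adjusted p = 0.459). The log2 fold change of CENPP was −0.05 without control replicate 3, and −0.02 after the length and GC correction, where CENPK and MIS12 were lower. The groups overlapped for CENPQ and CENPP. Exons of other genes overlap 42.7% of the CENPP exon bases, 31.4% of those of CENPO, 22.8% of those of CENPN and 11.7% of those of CENPU, so these values are uncertain in source.

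CENPF, a very large protein of the kinetochore's fibrous outer corona, had 524, 517 and 552 CPM in OGD/R libraries, against 448, 445 and 436 CPM in control libraries. The groups did not overlap (0.26 ± 0.04, adjusted p = 1.74e-06).

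In the KMN network, which forms the microtubule-binding face, 8 of 10 genes rose and 0 fell, with a median log2 fold change of 0.31. All 4 genes of the NDC80 complex rose. NDC80, which contacts the microtubule directly, had 103, 105 and 111 CPM in OGD/R libraries, against 82.3, 85.6 and 77.3 CPM in control libraries (0.38 ± 0.05, adjusted p = 1.08e-07). NUF2, its partner, had 74.6, 85.2 and 77.0 CPM after OGD/R and 64.9, 57.5 and 55.95 CPM in control (0.41 ± 0.06, adjusted p = 6.40e-07). Neither gene had overlapping groups. SPC25 (0.42 ± 0.07, adjusted p = 1.88e-05) and SPC24 (0.28 ± 0.09, adjusted p = 0.0207), which join NDC80 and NUF2 to the inner layers, rose too. Per kilobase of the longest coding transcript, the level was 49.0 CPM for NDC80, 40.1 for NUF2, 28.6 for SPC25 and 8.86 for SPC24 after OGD/R, and 37.6, 30.2, 21.4 and 7.29 CPM in the same gene order in control. The order of the 4 levels was the same in both groups, although the cells may hold shorter forms than the annotated ones.

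The MIS12 complex, the bridge between inner and outer kinetochore, had 2 of 4 genes higher. NSL1 rose by 0.26 ± 0.07 (adjusted p = 0.00808). PMF1 rose by 0.43 ± 0.15 (adjusted p = 0.0299) and had the lowest counts of all measured members. Its call was lost when any library other than OGD/R replicate 1 or control replicate 2 was left out, and 23.3% of its exon bases overlap PMF1-BGLAP. DSN1 had 88.9, 85.5 and 82.9 CPM after OGD/R and 79.9, 76.4 and 80.6 CPM in control, without overlap, and did not pass (0.12 ± 0.05, adjusted p = 0.102). MIS12 itself had 44.8, 40.9 and 41.1 CPM after OGD/R and 43.1, 41.1 and 39.5 CPM in control, with overlap (0.04 ± 0.07, adjusted p = 0.780). ZWINT, which docks the ROD-ZW10-ZWILCH complex, had 129.96, 142 and 146 CPM in OGD/R libraries, against 106, 115 and 110.2 CPM in control libraries (0.34 ± 0.05, adjusted p = 4.89e-07). Its partner KNL1, the scaffold on which BUB proteins gather, rose by 0.15 ± 0.05 (adjusted p = 0.0188). Neither had overlapping groups.

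All 5 measured genes of the spindle checkpoint rose, with a median log2 fold change of 0.28 and no overlap between groups. BUB1, a kinase that marks centromeric chromatin for the shugoshins, had 205, 208 and 210.2 CPM in OGD/R libraries, against 159, 153 and 151 CPM in control libraries (0.43 ± 0.04, adjusted p = 5.77e-11). TTK, the MPS1 kinase that starts checkpoint signalling, had 99.4, 106 and 101 CPM after OGD/R and 84.6, 80.1 and 76.3 CPM in control (0.35 ± 0.05, adjusted p = 7.02e-07). MAD2L1, which encodes MAD2, the core of the anaphase inhibitor, had 86.3, 94.8 and 92.6 CPM after OGD/R and 72.8, 78.4 and 74.3 CPM in control (0.28 ± 0.05, adjusted p = 7.04e-05). In each of these genes every OGD/R library was high. BUB3, which carries BUB1 and BUBR1 to KNL1, rose by 0.17 ± 0.04 (adjusted p = 0.00332). BUB1B, which encodes BUBR1, rose by 0.14 ± 0.05 (adjusted p = 0.0336), with 10.2% of its exon bases overlapping BUB1B-PAK6. The call was lost with total-count scaling (adjusted p = 0.110) and after the length and GC correction described below (adjusted p = 0.0561).

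Of the passenger complex and shugoshin genes, 4 of 5 rose and 0 fell, with a median of 0.32. BIRC5, which encodes survivin, had the smallest p of all members, with 197, 194 and 203 CPM in OGD/R libraries, against 138, 147 and 139 CPM in control libraries (0.48 ± 0.04, adjusted p = 3.41e-12). CDCA8, which encodes borealin, had 83.7, 79.3 and 82.3 CPM after OGD/R and 63.6, 69.1 and 63.7 CPM in control (0.32 ± 0.05, adjusted p = 1.08e-05). Both had groups that did not overlap. INCENP, the scaffold that survivin and borealin bind, had 164, 157 and 156 CPM after OGD/R and 146, 144 and 157 CPM in control, with overlap (0.09 ± 0.05, adjusted p = 0.151). AURKB, the kinase of this complex and not among the 38 symbols, rose to 133 ± 0.58 CPM after OGD/R, against 107 ± 1.94 CPM in control (SD, n = 3 each, 0.32 ± 0.05, adjusted p = 3.87e-07). The shugoshins protect centromeric cohesin. SGO2 had 50.6, 54.2 and 52.2 CPM after OGD/R and 44.7, 42.8 and 39.9 CPM in control (0.30 ± 0.06, adjusted p = 0.000371). SGO1 rose by 0.35 ± 0.09 (adjusted p = 0.00531), with OGD/R replicate 3 close to the control libraries. Exons of SGO1-AS1 overlap 17.7% of the SGO1 exon bases, so the source of these reads is uncertain.

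The SKA complex holds kinetochores on shrinking microtubule ends, and 1 of its 3 genes rose, a count that is no result about the complex. SKA2 had 81.95, 80.3 and 83.4 CPM in OGD/R libraries, against 74.6, 71.5 and 72.4 CPM in control libraries, without overlap (0.17 ± 0.05, adjusted p = 0.0154). SKA1 had 53.4, 57.8 and 51.9 CPM after OGD/R and 52.6, 48.5 and 51.1 CPM in control (0.10 ± 0.06, adjusted p = 0.296). SKA3 had 30.9, 37.7 and 33.0 CPM after OGD/R and 30.7, 31.3 and 29.3 CPM in control (0.15 ± 0.08, adjusted p = 0.168). The groups overlapped for SKA1 and SKA3. Without OGD/R replicate 2, the highest library for both, the log2 fold change of SKA1 was 0.05 and that of SKA3 was 0.07. SKA2 lost its call with total-count scaling (adjusted p = 0.0570) and after the length and GC correction (0.08, adjusted p = 0.267).

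Ratios between partner genes were formed in each library, for pairs picked after their values were seen, so they are given with no test. The log2 ratio of CENPH to CENPK was −0.04, 0.12 and −0.05 in OGD/R libraries, against −0.49, −0.46 and −0.43 in control libraries. For BUB1 over its paralog BUB1B it was 0.94, 0.93 and 0.91 in OGD/R libraries, against 0.74, 0.57 and 0.62 in control libraries. BIRC5 over INCENP gave 0.27, 0.31 and 0.38 after OGD/R and −0.08, 0.03 and −0.17 in control. These 3 ratios were higher in every OGD/R library, and each sets a member over a partner that rose less or did not pass. Not all pairs that were formed are given. The ratio of NDC80 to NUF2 averaged 0.43 ± 0.12 after OGD/R and 0.46 ± 0.12 in control, and that of SGO1 to SGO2 averaged −1.25 ± 0.17 after OGD/R and −1.29 ± 0.17 in control (SD, n = 3 each), with overlapping groups in both.

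**Figure D2:**
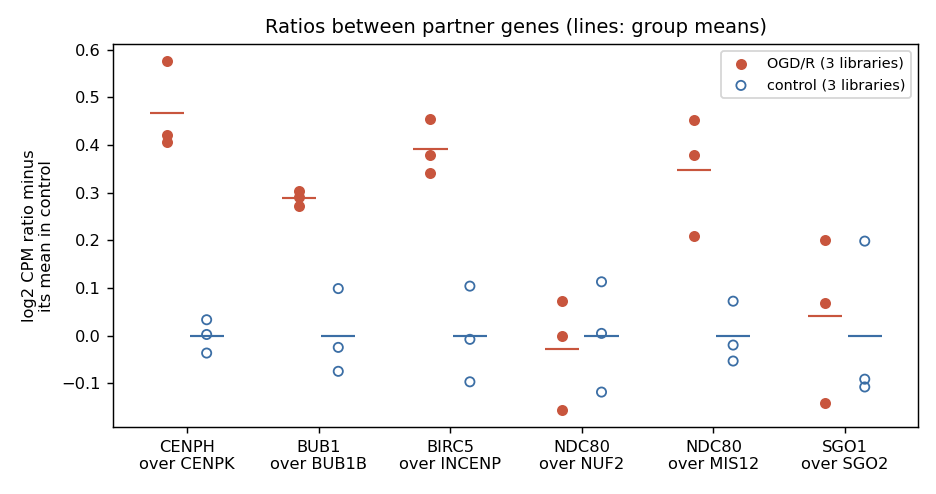
Log2 ratio of the CPM of partner genes in each library, minus its mean over the control libraries (filled, OGD/R; open, control; lines, group means). CENPH over CENPK, BUB1 over BUB1B, BIRC5 over INCENP and NDC80 over MIS12 lie above control in all OGD/R libraries, while NDC80 over NUF2 and SGO1 over SGO2 overlap. The pairs were picked after their values were seen.

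Transcript length moved with the comparison. Across 10859 protein-coding genes with sufficient counts, the fold change and the length of the longest coding transcript had a Spearman's rho of −0.37, and across the 37 members it was −0.45, both as descriptions over genes. The median length was 2587 nucleotides for the members and 3576 for the 10859 genes. The rho between a library's own deviation and length was −0.29, −0.34 and −0.24 in OGD/R replicates 1, 2 and 3. In control replicates 1, 2 and 3 it was 0.46, 0.04 and 0.29, with control replicate 1 the strongest of all. The sign followed the group, so a correction for this trend may also remove part of the OGD/R difference itself. After a correction that removed each library's trend on length and GC content, 21 members were higher and 1 was lower, 19 of the 21 being among the 26 that rose without it. Of all 17104 genes tested, 1751 were then higher and 1503 lower. The median of the members was then 0.23. The spindle checkpoint kinases and survivin moved little, with BUB1 at 0.39, TTK at 0.31 and BIRC5 at 0.46. Short transcripts gave up more, with CENPW at 0.30 (adjusted p = 0.0263), CENPH at 0.29, SPC25 at 0.25 and CENPA at 0.22 (adjusted p = 0.0298). CENPM, CENPN, CENPU, NSL1, PMF1, BUB1B and SKA2 no longer passed. Long transcripts gained, with CENPF at 0.35, KNL1 at 0.23 and BUB3 at 0.24. These lengths are of the longest annotated forms, and the cells may hold shorter ones, which limits the corrected values. INCENP (0.15, adjusted p = 0.00254) and CENPO (0.23, adjusted p = 0.0325) passed as higher, and CENPK passed as lower (−0.17, adjusted p = 0.0299).

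**Figure D3:**
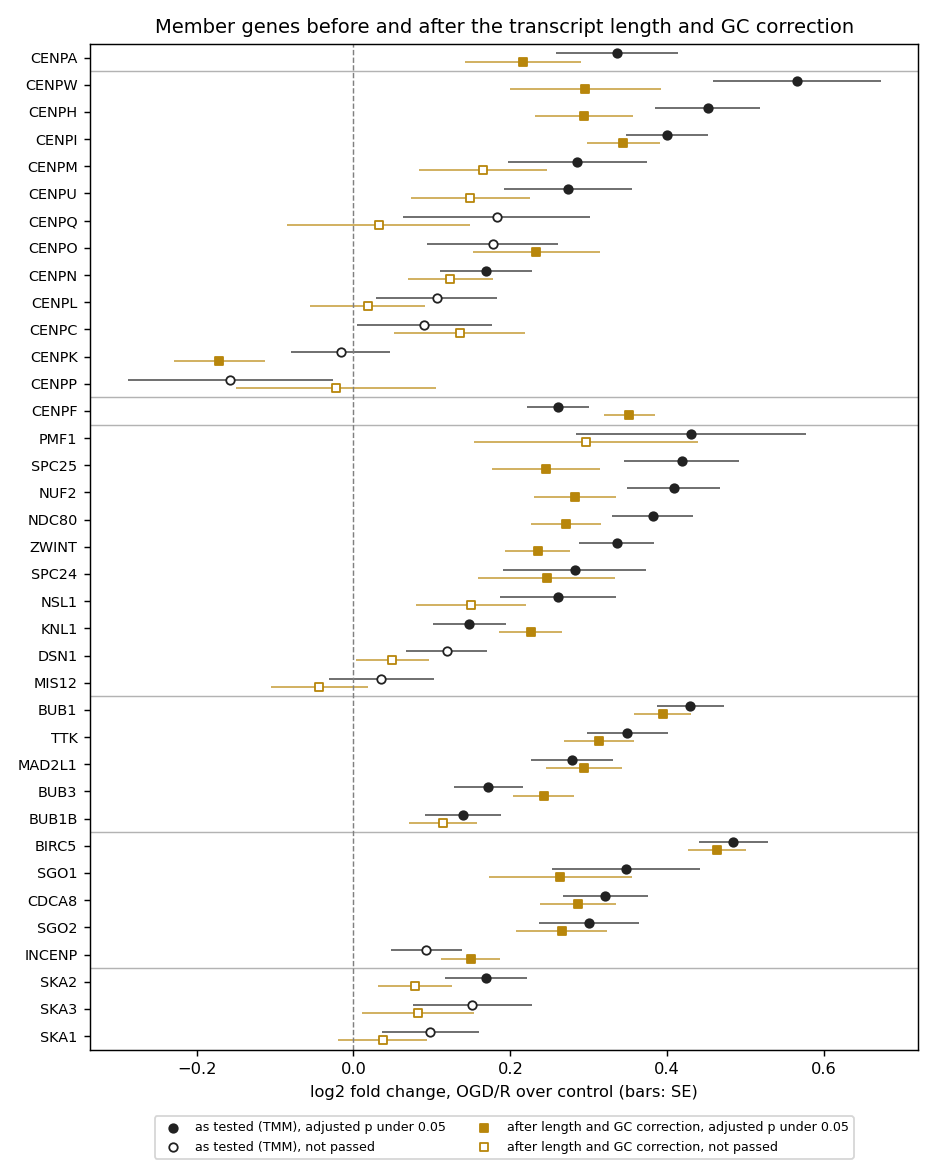
Log2 fold change of each member, OGD/R over control, with its SE, as tested (circles) and after the length and GC correction (squares), with filled symbols for an adjusted p under 0.05. The value of CENPW, a short transcript, is nearer 0 after the correction (0.57 as tested, 0.30 corrected), and that of CENPF, a long transcript, is higher (0.26 as tested, 0.35 corrected).

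In total, 17 members passed in the test as given and in all 16 alternatives tried: BIRC5, BUB1, BUB3, CDCA8, CENPA, CENPF, CENPH, CENPI, CENPW, MAD2L1, NDC80, NUF2, SGO1, SGO2, SPC25, TTK and ZWINT. In 8 members no setting gave an adjusted p under 0.05. INCENP had 4762 to 5613 counts and DSN1 had 2567 to 3049 counts, and neither passed as tested, whereas CENPA passed with 828 to 1258 counts. Of the 26 higher members, 9 lost their call when some single library was left out. Of all genes tested, 1749 were higher with every library kept. Without OGD/R replicates 1, 2 and 3 in turn, that number was 1545, 1293 and 1361. Without control replicates 1, 2 and 3 in turn, it was 1469, 1840 and 1304. The counts in brackets below are of members. Without OGD/R replicate 2 (20 higher), CENPN, SPC24, NSL1, PMF1, KNL1 and BUB1B had an adjusted p of 0.0588 to 0.120. Without OGD/R replicate 3 (20 higher), CENPM, CENPN, CENPU, PMF1, BUB1B and SKA2 had 0.0613 to 0.146. Without control replicate 3 (19 higher), CENPN, CENPU, SPC24, PMF1, KNL1, BUB1B and SKA2 had 0.0549 to 0.149. Without control replicate 1 (22 higher), CENPM, SPC24, PMF1 and BUB1B had 0.0538 to 0.198. Without control replicate 2 (24 higher), CENPN and KNL1 had 0.112 and 0.0707, and without OGD/R replicate 1 (25 higher), CENPN had 0.0764. Annotated pseudogenes named after CENPC, CENPI, CENPN, CENPP, CENPU, BUB1, BUB3, MAD2L1, SGO1 and SKA2 can take up some of their reads.

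Other cell cycle genes were read from the same test, with list medians as descriptions. No set test was run, so no count below is read as a result about its list. Their counts stand beside 10.2% of all genes tested that rose and 9.48% that fell. Of the 10641 genes with a mean at least that of the lowest member, 15.4% rose. Of 29 further centromere and kinetochore genes with a value, 10 rose and 1 fell, with a median of 0.10. The members had 26 of 37 and 0.27, but both lists were chosen with earlier results of these data known. The gap between them is therefore no result. CDC20, which the checkpoint holds back, rose to 216 ± 8.38 CPM after OGD/R, against 152 ± 4.31 CPM in control (SD, n = 3 each, 0.51 ± 0.04), PLK1, a mitotic kinase, rose by 0.49, and KIF2C, a microtubule-depolymerising kinesin, by 0.32. BOD1, a small kinetochore phosphatase inhibitor, fell by 0.22 on the log2 scale (adjusted p = 0.00601). Exons of other genes overlap 12.5% of the PLK1 exon bases, and 14.2% of those of RAD21 and 15.9% of those of FOXM1, named below.

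Of 15 cohesin and separase genes, 4 rose (26.7%) and 0 fell, with a median of 0.08. PTTG1, which encodes the separase inhibitor securin, rose to 132 ± 2.56 CPM after OGD/R, against 82.6 ± 5.55 CPM in control (0.68 ± 0.05), and the cohesin subunits RAD21 (0.28) and SMC3 (0.18) rose, while separase itself, ESPL1, had a value of 0.01. Of 18 genes of the anaphase-promoting complex and its partners, 4 rose and 0 fell. These were the ubiquitin-conjugating enzymes UBE2S (0.40) and UBE2C (0.18), the subunit CDC27 (0.16) and the inhibitor FBXO5 (0.20). The share of 22.2% higher is not far from the 15.4% of genes at or above the lowest member's mean. The count is thus no result about that list, which also holds genes below that mean, such as ANAPC10. The UBE2C value was 0.00178 with the length and GC correction and the replicate block together.

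Among 23 regulators of mitotic transcription, 2 rose and 0 fell. The share of 8.70% higher is near the 10.2% of all genes, so the count is no result about the list. The risen genes were MYBL2, the activator that binds the MuvB core, with 290.2 ± 7.04 CPM after OGD/R and 241 ± 4.47 CPM in control (0.27 ± 0.04), and FOXM1, with 218 ± 9.25 CPM after OGD/R and 193 ± 7.48 CPM in control (0.17 ± 0.04). The adjusted p was 1.22e-06 for MYBL2 and 0.00265 for FOXM1. Of 27 DNA replication genes, 8 rose (29.6%) and 1 fell, with a median of 0.09. PCNA (0.29), CDC6 (0.23) and GINS1 (0.23) rose, and the polymerase gene POLE fell by 0.14, a value that was 0.00361 once length and GC content were corrected for. Over the 17 settings the lowest values were 0.15 for PCNA, 0.20 for CDC6, 0.17 for GINS1, 0.21 for AURKB and 0.52 for PTTG1. Each of these passed in all 17. In the list of 10 cell cycle arrest genes, 3 rose (30%) and 1 fell. The CDK inhibitors CDKN2C (0.48) and CDKN2D (0.50) and the cyclin CCNG1 (0.13) rose, CDKN2B fell by 0.32 and passed in 13 of 17 settings, CCNG1 passed in 11 of 17, and CDKN1A, the p53 target p21, had a value of 0.04 (adjusted p = 0.582).

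**Figure D4:**
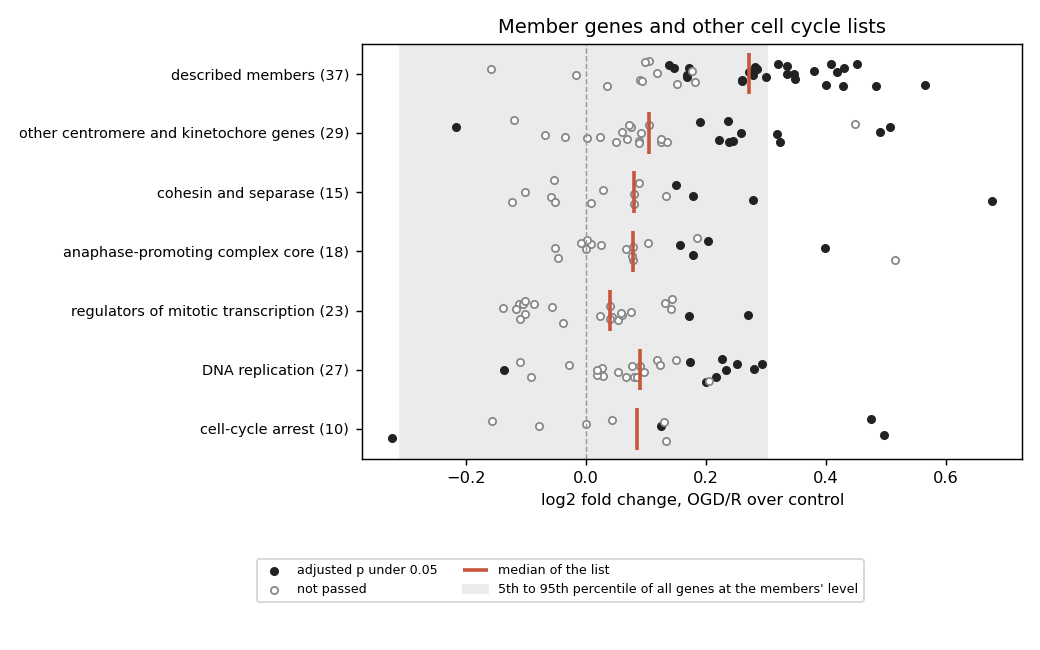
Log2 fold change of each gene, OGD/R over control, for the 37 described members and 6 other cell cycle lists (filled, adjusted p under 0.05; open, not passed; coloured line, list median; points are spread vertically for legibility). The grey band holds the 5th to 95th percentile, −0.31 to 0.30, of the 10641 genes whose mean level was at least that of the lowest member. The member median is 0.27, and the medians of the other lists run from 0.04 to 0.10. All lists were chosen with earlier results of these data known, so this gap is no result.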

How the data were processed

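Per the labels' protocols, the 6 libraries were made from total RNA with the NEBNext Ultra RNA kit. The authors deposited raw read counts per Ensembl gene in 1 table. Trimmomatic, HISAT2, SAMtools, featureCounts and edgeR are named without versions or settings in the submitters' processing notes, which give the build as GRCm38, a mouse build, although the gene IDs are human, so no coordinates are tied to the counts. The sources used here do not give the strand setting. Each of the 17104 genes reached 10 counts in 3 libraries or more. Of these, 17093 matched a symbol.

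Counts were scaled by TMM and tested across all genes with edgeR 4.0.16 in R 4.3.3 (glmQLFit, robust, glmQLFTest, two-sided, no replicate block, Benjamini-Hochberg, threshold 0.05). filterByExpr with a minimum count of 10 removed 0 genes. Levels are TMM-scaled CPM, and a log2 fold change is OGD/R relative to control, with an SE derived from the F statistic. Scripts were checked on simulated data. Pairs of libraries within a group differed by a chi-square per degree of freedom of 4.07 to 7.43, so none was a duplicate.

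The members and lists were chosen with earlier results of these data known. Every member is named. Values in every library are given for CENPA, CENPF, the 3 members of smallest p in each role, those that did not pass and those of extreme fold change. From each further list the 3 changed genes of smallest p and any changed gene against the list's majority are named, with AURKB, PLK1, CDC20, FOXM1, MYBL2 and CDKN1A. ESPL1, FBXO5 and the values in every library of CENPM and CENPN were added after they were seen, as were the pairs of partner genes. Transcript lengths, GC content and exon overlap are from GENCODE 29. The length and GC correction used mgcv 1.9.3. Alternatives were other scalings, DESeq2 1.42.0, limma-voom (limma 3.58.1), filters, a replicate block, the length and GC correction with and without it, leaving out each library, and a shorter promoter window.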

Additional observations from a re-analysis of the deposited data

How the results depend on the processing

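Under all 16 alternatives the members higher after OGD/R outnumbered those lower, with 19 to 26 higher, and the member median stayed between 0.23 and 0.29. Without a filter the genes tested were the same, which shows nothing about filtering. RLE and upper-quartile scaling, DESeq2, limma-voom, a floor of 1 CPM in 3 libraries and the replicate block changed no call of a member, and with the replicate block 26 members rose, 0 fell, and 1827 and 1702 of all genes were higher and lower. No pairing by number was seen: deviations of same-numbered libraries had correlations of −0.01, 0.08 and −0.05, and not every library correlated best with its own number. The labels state no pairing, and with 3 libraries a group these values cannot exclude a shared batch. Total-count scaling cost 4 calls (CENPN, KNL1, BUB1B, SKA2) and gave 1, 2, 2 and 2 lower genes in the cohesin, DNA replication, further kinetochore and mitotic transcription lists. The length and GC correction, without and with the replicate block, gave 1 lower member, 2 lower genes of the arrest list, 0 of DNA replication, and 4 higher and 1 lower of mitotic transcription. MIS12 was then at −0.0436 without and −0.0449 with the block, and POLE at 0.00361 without and 0.00437 with it. Leaving out single libraries gave 19 to 25 higher members, with 1293 to 1840 higher and 1079 to 1527 lower genes in all. It gave 0 to 1 lower genes in each of the arrest, DNA replication and mitotic transcription lists. It also gave a log2 fold change of CENPK of −0.0509 to 0.0148 and a MIS12 value of −0.00897 to 0.0707. The causes were not tested. Low counts limit PMF1, CENPP and CENPQ, whose standard errors of 0.15, 0.13 and 0.12 were the largest of the members.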

Other observations

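The position of the CHR letters was read in a second, shorter promoter window, from 150 bases before to 50 bases after the start site. All 16 members with a match in the long window also had one in the short window (51.6% in both), whereas among 27305 genes the share was 18.3% in the short window and 27.9% in the long one. In CDCA8 and BUB1B the match begins 23 bases before the start site and in INCENP 10 bases before it, and CENPA holds one that begins 57 bases and another that begins 18 bases before it. Not all matches lie before the start site. In CENPN, NUF2, MAD2L1, SKA1 and CENPO the only match begins at base 4, 17, 25, 35 and 37 of the transcribed side. In NDC80 and SKA3 the only match spans the start site. CHR and CCAAT matches together were held by 9 of 31 members in the short window, against 5.75% of genes. Of the members with a measured level, 7 of the 20 that rose and 2 of the 10 that did not pass held both. These are counts of letters, and the difference between them was not tested.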
